A study of Mus musculus with 14 samples.

Results

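The 7 genes described here, Prdm1, Xbp1, Irf4, Mzb1, Ell2, Sdc1 and Creld2, are tied to the change of a B cell into an antibody-secreting plasma cell. They were chosen by name, as the probe sets whose only gene symbol in the array annotation is 1 of these 7, and they are 7 of the 15965 genes named in that way. Together they had 12 probe sets, 9 on array set A, 2 on set B and 1 on set C. RNA came from mouse spleen cells that were, by their labels, either enriched in or depleted of FDC, the follicular dendritic cells, which are stromal and display antigen to B cells. Sets A and C each carried depleted samples 1 and 2 and enriched samples 1, 2 and 3, and set B carried depleted samples 1 and 2 and enriched samples 2 and 3, which makes 14 arrays. The sources used here do not give the strain, genotype, age or treatment of the mice, or how the fractions were made. Whether replicate samples came from different mice is likewise unstated, so the p-values rest on a spread between samples that may be technical.

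When a B cell is activated to secrete antibody, the transcription factors Irf4 and Prdm1 (Blimp-1) switch off the B cell program, and Xbp1 expands the secretory apparatus of the endoplasmic reticulum. Mzb1 and Creld2 encode proteins of that compartment, Ell2 encodes an elongation factor that favours the secreted form of immunoglobulin heavy chain RNA, and Sdc1 encodes syndecan-1 (CD138), the surface marker used to sort plasma cells. None of these genes is limited to plasma cells. Prdm1, Irf4 and Xbp1 also act in T cells and myeloid cells, and Sdc1 is abundant in epithelium.

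The promoter of Creld2 holds the endoplasmic reticulum stress response element (ERSE), which the stress-activated factors Atf6 and Xbp1 recognise together with NF-Y. The element was searched as CCAAT, 9 bases of any kind and CCACG on both strands of windows from 250 bases before to 50 bases after each gene's start (RefSeq, GRCm38.p6). Of 32851 such windows, 39 held it, or 0.119%. Windows were present for 6 of the 7 genes, without Mzb1, and only that of Creld2 held the element, from 126 to 108 bases before the start on the opposite strand. Of 32 genes of a secretory and unfolded protein response list with a window, 7 held it, Hspa5, Hsp90b1, Pdia6, Calr, Canx, Dnajc3 and Syvn1, and Hsp90b1 held 2 copies. The elements of Creld2 and of the 5 listed genes that were tested, all but Calr and Syvn1, are printed with CCAAT first and the fixed letters in capitals, to show that the middle 9 bases differ between genes.
Creld2, chr15:88819520-88819538: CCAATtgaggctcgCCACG
Hspa5, chr2:34772025-34772043: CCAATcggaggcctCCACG
Hsp90b1, chr10:86705533-86705551: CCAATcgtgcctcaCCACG
Hsp90b1, chr10:86705638-86705656: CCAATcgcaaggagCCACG
Pdia6, chr12:17266491-17266509: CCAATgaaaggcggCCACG
Canx, chr11:50325800-50325818: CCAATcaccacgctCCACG
Dnajc3, chr14:118937827-118937845: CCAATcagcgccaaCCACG
The whole Creld2 window (chr15:88819396-88819695, plus strand) follows, with the fixed letters of the element, read here on the other strand, in capitals.
Creld2: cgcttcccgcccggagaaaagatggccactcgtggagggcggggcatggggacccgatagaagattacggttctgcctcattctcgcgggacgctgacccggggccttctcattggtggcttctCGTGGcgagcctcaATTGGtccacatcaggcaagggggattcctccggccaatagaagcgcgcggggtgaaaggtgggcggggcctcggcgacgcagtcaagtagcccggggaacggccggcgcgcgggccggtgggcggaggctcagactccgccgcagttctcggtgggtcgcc
A match describes the letters of this window and does not show that a factor binds there. The related element ERSE-II (ATTGG, 1 base of any kind and CCACG, 0.0365% of windows), the Xbp1 core TGACGTGG (0.676%), the core AGNGAAAG of the Prdm1 consensus (8.63%) and the composite of Ets and Irf sites (GGAA, 2 bases of any kind and GAAA, 2.72%) were found in none of the 6 windows on either strand.

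The 7 genes did not move together. Prdm1 and Ell2 rose in the FDC-enriched fraction, Irf4 and Mzb1 fell, Xbp1 and Creld2 did not pass the test, and Sdc1 was too dim to be tested. Values are linear intensities as the authors deposited them, and fold changes are differences of log2(intensity + pseudocount), a scale that understates changes of dim genes. Testing was limited to probe sets that lay above the 40th percentile of its array on at least 2 arrays, and the threshold was an adjusted p of 0.05 (limma, two-sided, adjusted over all tested probe sets of the array set). By this filter 8 of the 12 probe sets, standing for 6 genes, were tested and 5 passed. On set A 41.0% of all tested probe sets passed (23.1% higher and 17.9% lower in the enriched samples), with 36.4% (19.4% and 17.0%) on set B and 18.1% (9.47% and 8.67%) for set C, so a call by itself sets none of these genes apart. Over all sets 32.2% passed. The groups did not overlap for 7 of the 8 tested probe sets of these genes, and for 59.8% of all tested probe sets. By gene, with its brightest tested probe set, 19.3% of 12273 genes rose and 14.5% fell, 33.8% in all. These shares are the background for the counts of every list below. The 6 tested genes had a median log2 fold change of -0.01, against 0.02 over all genes.

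**Figure D1:**
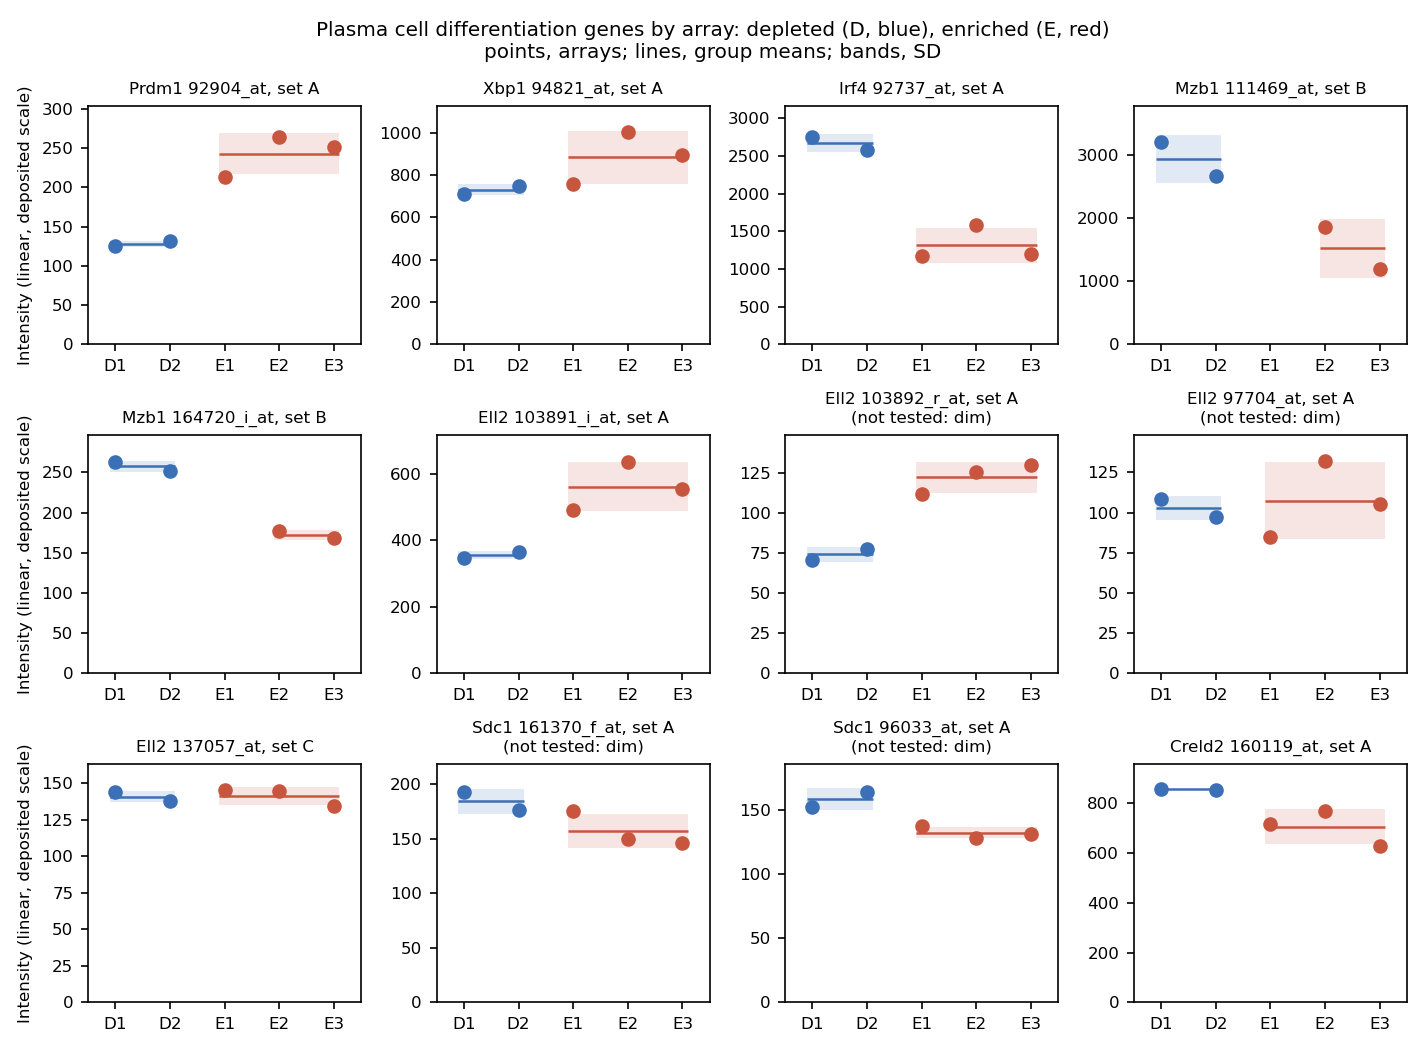
Linear intensity (vertical axis, from 0) of each of the 12 probe sets on each array (horizontal axis, D for depleted and E for enriched samples), with group means as lines and SD as bands. Prdm1 and the Ell2 probe sets 103891_i_at and 103892_r_at lie higher on the enriched arrays, Irf4 and both Mzb1 probe sets lie lower, and Sdc1 lies low on all arrays; set B has no array of enriched sample 1.

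Prdm1, the repressor that ends the B cell program, was the only one of the 3 transcription factors of this group whose rise passed. Its probe set 92904_at on set A measured 125.1 and 131.0 in depleted samples 1 and 2, and 213.8, 264.0 and 251.4 in enriched samples 1, 2 and 3. All enriched arrays lay above all depleted arrays, as was the case, in either direction, for 63.3% of tested probe sets on set A. The mean went from 128.0 ± 4.22 (SD, n = 2) to 243.1 ± 26.1 (SD, n = 3), a 1.9-fold ratio of mean intensities, and the log2 fold change was 0.61 ± 0.08 (SE, adjusted p = 0.000504, limma). The probe set lay above the 40th percentile on 3 arrays, all of them enriched, so it entered the test only through the group in which it was high. With no filter it had the same log2 fold change of 0.61 and an adjusted p of 0.000558 (limma).

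Irf4, which in plasma cell formation acts upstream of Prdm1, moved the other way. Probe set 92737_at on set A measured 2760 and 2587 in the depleted samples and 1165, 1582 and 1199 in the enriched samples. The groups did not overlap, and enriched sample 2 lay above the other enriched samples. The mean fell from 2673 ± 122 (SD, n = 2) to 1315 ± 232 (SD, n = 3), with a log2 fold change of -0.99 ± 0.13 (SE) and an adjusted p of 0.000401 (limma). In bulk samples, fewer cells that express a gene and less RNA per cell cannot be told apart, and this holds for every gene named here.

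Xbp1, the factor that drives secretory expansion, did not pass. Probe set 94821_at on set A measured 711.1 and 749.1 in the depleted samples and 755.3, 1004 and 893.6 in the enriched samples. Enriched sample 1 lay just above depleted sample 2, and enriched samples 2 and 3 lay clearly higher. The log2 fold change was 0.24, with a 95% confidence interval of -0.01 to 0.50 and an adjusted p of 0.122 (limma). Without enriched sample 1 it was 0.34 with an adjusted p of 0.00833, and without enriched sample 2 it was 0.15 with an adjusted p of 0.255. The file gives a single Xbp1 value per array, which cannot separate the spliced, active form of the RNA from the unspliced form.

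Mzb1, a chaperone of immunoglobulin assembly in the endoplasmic reticulum of B cells and plasma cells, fell at both of its probe sets on set B. The brighter, 111469_at, measured 3210 and 2664 in depleted samples 1 and 2, and 1854 and 1192 in enriched samples 2 and 3. The enriched samples lay below the depleted ones but differed from each other, with means of 2937 ± 386 (SD, n = 2) and 1523 ± 468 (SD, n = 2). Its log2 fold change was -0.94 ± 0.16 (SE, adjusted p = 0.0013, limma), -0.64 without enriched sample 3 and -1.24 without enriched sample 2. The dimmer probe set, 164720_i_at, measured 262.6 and 252.2 against 176.9 and 167.8, with a log2 fold change of -0.42 ± 0.06 (SE, adjusted p = 0.000239, limma). On set B 67.7% of tested probe sets had groups that did not overlap.

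Creld2, which encodes a disulphide-handling protein induced by stress of the endoplasmic reticulum, missed the threshold narrowly. Probe set 160119_at on set A measured 856.5 and 852.7 in the depleted samples and 717.4, 768.2 and 629.0 in the enriched samples. All enriched samples lay below the depleted ones, which differed from each other by little. The log2 fold change was -0.25, with a 95% confidence interval of -0.46 to -0.04 before adjustment and an adjusted p of 0.0559 (limma). With other scalings between arrays the gene passed, with -0.37 (adjusted p = 0.00675, limma) after quantile normalization and -0.34 (0.0159) when each array was brought to a common median. It also passed without enriched sample 1 (0.0462) and without enriched sample 2 (0.0263). It did not pass without enriched sample 3 (-0.18, adjusted p = 0.167), without depleted sample 1 (0.224) or without depleted sample 2 (0.217).

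Ell2, the elongation factor gene, gave different answers at its 4 probe sets. The brightest, 103891_i_at on set A, measured 346.0 and 363.8 in the depleted samples and 489.7, 636.3 and 554.4 in the enriched samples. The groups did not overlap, and the log2 fold change was 0.54 ± 0.10 (SE, adjusted p = 0.00279, limma). Probe set 103892_r_at, designed on the same sequence record, was dimmer at 70.9 and 77.8 against 111.7, 125.7 and 130.2. It lay below the filter on every array, and with no filter its log2 fold change was 0.37 (adjusted p = 0.00189, limma).

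The other 2 Ell2 probe sets had fold changes near 0. On set C, 137057_at measured 143.8 and 138.1 against 145.2, 144.7 and 134.1. Its groups overlapped, whereas 47.6% of tested probe sets on that set had groups apart, with a log2 fold change of 0.00 and a 95% confidence interval of -0.11 to 0.12, which does not reach the value of the brightest probe set. Probe set 97704_at on set A, below the filter, measured 108.4 and 97.5 against 84.9, 132.4 and 105.1, and its log2 fold change was 0.03 (95% confidence interval -0.19 to 0.25) with no filter. The rise of Ell2 thus rests on the 2 probe sets of a single sequence record. The array maker's suffixes i and r mark sets with fewer or less strictly chosen probes.

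Sdc1, the syndecan by which plasma cells are sorted, was dim in both fractions. Probe set 161370_f_at measured 192.5 and 176.2 in the depleted samples and 175.2, 149.7 and 146.3 in the enriched samples, and it lay above the 40th percentile on 1 array. Probe set 96033_at measured 152.0 and 164.1 against 137.0, 128.1 and 131.3, below that percentile on every array. In both cases the enriched arrays lay below the depleted arrays. With no filter the log2 fold changes were -0.15 (adjusted p = 0.184) and -0.16 (adjusted p = 0.093), neither of which passed (limma). The 95% confidence intervals before adjustment were -0.33 to 0.02 and -0.30 to -0.02, so whether Sdc1 changed was not settled.

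**Figure D2:**
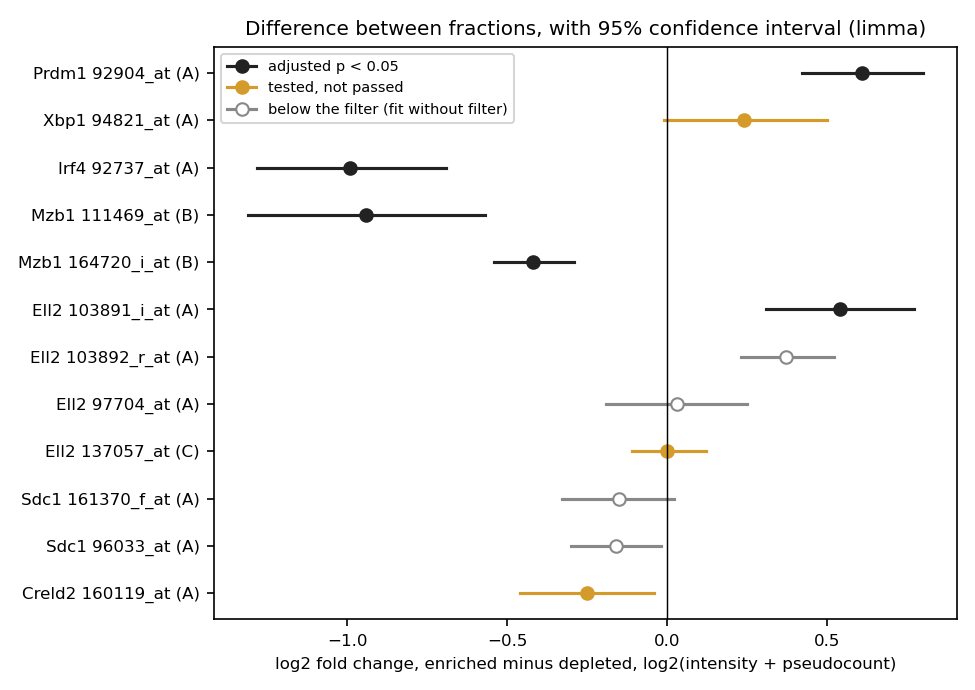
Log2 fold change, enriched minus depleted (horizontal axis), of the 12 probe sets with 95% confidence intervals from limma, before adjustment. Prdm1 (0.61) and Ell2 103891_i_at (0.54) lie above 0, Irf4 (-0.99) and Mzb1 111469_at (-0.94) lie below 0, and open points mark probe sets below the filter, fitted without it.

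Samples within the enriched group also differed. For each of the 5 tested probe sets on set A, enriched sample 2 had the highest value of the enriched arrays, as it did for 37.4% of the 7540 tested probe sets that had all 5 values. The dim probe sets did not all share this order. Ell2 97704_at was highest in enriched sample 2, both Sdc1 probe sets in enriched sample 1 and Ell2 103892_r_at in enriched sample 3. On set B both Mzb1 probe sets were higher in enriched sample 2 than in enriched sample 3, and on set C Ell2 137057_at was highest in enriched sample 1. On set A the trimmed mean intensity of enriched sample 2, 479.5, was above those of enriched samples 1 and 3 (467.1 and 469.3). Enriched sample 2 had no value there for 893 probe sets, none of them among the 12. Without that sample the log2 fold changes were 0.57 for Prdm1 and -1.12 for Irf4, and both passed.

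By a fixed measure of likeness, the root mean square distance between log2 values centred on the mean of the group means, the nearest genes on the same array set were named for each tested gene. They were Myo1d and Il18 for Prdm1 (0.021 and 0.0287), and Cd52 and Marchf7 for Irf4 (0.0527 and 0.0681). For Xbp1 they were Ndufa9 and Ppp1r15b (0.0276 and 0.0344), and for Ell2 Ybx3 and Ywhah (0.0256 and 0.0326). Creld2 was nearest to Btf3 and Gpank1 (0.0182 and 0.0196). For Mzb1, over the 4 arrays of set B, the nearest were Irf2bp2 and Srrm2, at larger distances of 0.0832 and 0.132. The distances on set A are over 5 arrays. All distances take in both the difference between fractions and the spread within them, and the part of each was not tested.

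Other genes of plasma cells fell more often than they rose. Of 15 such genes, 13 had a probe set and 12 were tested: 7 fell, 1 rose and 4 did not pass, with a median log2 fold change of -0.42. Cd28, a costimulatory receptor that T cells carry as well as plasma cells, fell from 547.6 ± 10.4 (SD, n = 2) to 64.2 ± 8.82 (SD, n = 3), a log2 fold change of -2.06. Cd28 lay above the filter only on the depleted arrays, and with no filter its log2 fold change was also -2.06. Cxcr4, the receptor that draws plasma cells to bone marrow, had -1.94, with depleted arrays far apart at 1531 ± 491 (SD, n = 2).

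Jchain and Pou2af1, chosen after their values were seen, are closer to the secretory program. Jchain, which encodes the chain that joins IgM and IgA polymers, went from 4001 ± 223 (SD, n = 2) to 2594 ± 493 (SD, n = 3), with -0.62 as log2 fold change (limma, adjusted p = 0.00901), but it did not pass without depleted sample 2 (0.0701). Pou2af1, a B cell coactivator, had -1.22. The gene that rose was Zbtb20 at 0.36, a call lost when depleted sample 2 was left out (adjusted p = 0.101). The 6 tested Zbtb20 probe sets ranged from -0.22 to 0.36. Tnfrsf17, the survival receptor BCMA of plasma cells, had 0.02 with overlapping groups. To complete the list, Slamf7 (0.06), Derl3 (-0.11) and Txndc5 (-0.20) did not pass either. Tnfrsf13b (-1.26), Ly6d (-1.20) and Fkbp11 (-0.22) fell. Fkbp11, like Cd28, lay above the filter only on the depleted arrays. How far cells other than plasma cells carry these falls was not tested.

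Immunoglobulin constant genes were covered by few probe sets with a single symbol. Of 12 listed genes 5 had a probe set and 4 were tested, of which 2 fell and 2 did not pass. Igha fell from 4260 ± 710 (SD, n = 2) to 1434 ± 322 (SD, n = 3), a log2 fold change of -1.53, and Ighg3 had -1.21. Other Igha probe sets had -1.46 and -0.59, which passed, and -0.03 on set B, which did not. An Ighg3 probe set with -0.04 did not pass, and the other tested Ighg3 probe sets fell. The Ighm probe set that is brightest had -0.28 and did not pass (adjusted p = 0.0622, limma), but passed after quantile normalization (-0.25, adjusted p = 0.019) and when arrays were brought to a common median (-0.38, adjusted p = 0.0197). Most of its other tested probe sets fell, so the brightest does not stand for all of them. These genes are similar in sequence, and probes may recognise more than a single chain.

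Transcription factors of the B cell program mostly fell, and whether Prdm1 has a part in this was not tested. Of 18 tested, 13 fell, 1 rose (2 without enriched sample 1) and 4 did not pass, with a median log2 fold change of -0.60. Bach2, a repressor of Prdm1 in B cells, fell from 794.8 ± 24.2 (SD, n = 2) to 121.6 ± 22.6 (SD, n = 3), a log2 fold change of -2.29, and Ikzf1 had -2.21 on set B, where its probe set on set A did not pass. Bcl6, the germinal centre factor that opposes Prdm1, was named after its values were seen and had -0.93. Id3, an inhibitor of E proteins that many cell types express, rose by 2.08 on the log2 scale. Pax5, which maintains B cell identity and was also named after its values were seen, measured 1839 ± 152 (SD, n = 2) and 1760 ± 129 (SD, n = 3), with overlapping groups and a log2 fold change of -0.06. Of the 13 factors with a promoter window, 5 held the Prdm1 core AGNGAAAG, namely Pax5, Bach2, Ebf1, Mef2c and Ikzf1. Of these 5, 4 fell. Of all 18 tested factors 13 fell, but these include factors with no window to search, so the shares cover different genes. The composite of Ets and Irf sites was held by Bach2, Bcl6 and Pou2f2, which all fell, and the same limit applies. Whether either motif goes with a fall was not tested.

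Genes of the secretory pathway and the unfolded protein response, the processes that Xbp1 controls, showed small changes both ways. Of 39 such genes 34 were tested, and 11 rose, 4 fell and 19 did not pass, with a median log2 fold change of 0.19. The count of rises depended on the setting. Quantile normalization left 4 rises and 4 falls, and a common median for all arrays left 4 and 6. Array weights gave 16 rises and 6 falls, and leaving out enriched sample 1 gave 15 and 4. Without depleted sample 1 there were 3 rises and 2 falls, without depleted sample 2 there were 6 and 1, and without enriched sample 2 there were 5 and 5. Ern1, which encodes the kinase and nuclease IRE1 alpha that splices Xbp1 RNA, rose on set B from 260.3 ± 7.13 (SD, n = 2) to 540.4 ± 94.9 (SD, n = 2), a log2 fold change of 0.86 (adjusted p = 5.37e-05, limma). Its other probe set had -0.02 and did not pass. Ssr3, a subunit of the translocon-associated complex, rose by 0.77 on the log2 scale.

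Eif2ak3, which encodes the stress sensor PERK, fell by 0.43 on the log2 scale, and the disulphide isomerase gene Pdia4 fell by 0.42. The call of Eif2ak3 was lost when depleted sample 1 was left out (-0.34, adjusted p = 0.129, limma) and that of Pdia4 when depleted sample 2 was left out (-0.38, adjusted p = 0.0667), and the direction of both held in all settings. The other tested probe set of Eif2ak3 did not pass. Of the 7 genes of this list whose windows held the ERSE, 5 were tested, and 1 rose, none fell and 4 did not pass (limma). Pdia6 rose by 0.46 on the log2 scale with an adjusted p of 0.0377, a call lost with both other scalings (0.0589 and 0.0736), without depleted sample 1 (0.271) and without enriched samples 2 (0.0818) or 3 (0.0942). The log2 fold changes of Hspa5, Hsp90b1 and Dnajc3 were 0.31, -0.24 and -0.15. That of Canx was 0.05 and turned to -0.05 after quantile normalization and -0.03 at a common median. Other probe sets of Canx and Dnajc3 passed, so a single value does not describe these genes. Creld2, with the same element, had -0.25.

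Relatives and partners of the 7 genes also went both ways. Of 14 tested, 3 rose, 3 fell and 8 did not pass. Over all tested genes 19.3% rose and 14.5% fell, so these counts do not set the list apart. Leaving out enriched sample 1 gave 3 rises and 5 falls, and the replicate block gave 4 and 2. Ell3, a relative of Ell2 that is expressed in B cells, fell on set B from 508.9 ± 20.2 (SD, n = 2) to 209.3 ± 11.2 (SD, n = 2), a log2 fold change of -1.02. Cdk9, the elongation kinase with which Ell proteins assemble, had -0.49. Eaf1, an Ell-associated factor, rose by 0.42 on the log2 scale, and Sdc3, another syndecan, by 0.73.

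**Figure D3:**
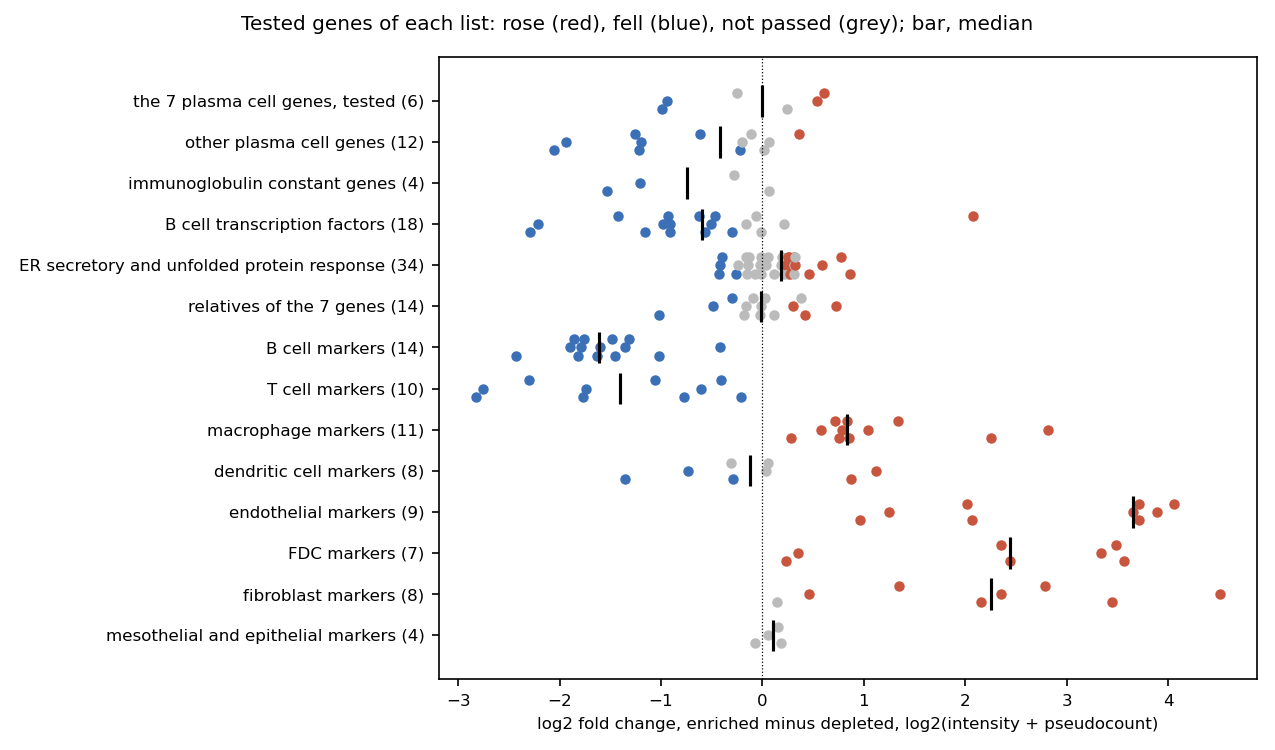
Log2 fold change, enriched minus depleted (horizontal axis), of each tested gene of 14 lists, 1 point per gene at its brightest tested probe set, with the number tested in parentheses and the median as a bar. The 7 plasma cell genes spread to both sides of 0, B and T cell markers lie below 0, and endothelial, FDC and macrophage markers lie above 0.

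Markers of other cells moved between the fractions at the same time. All 14 tested B cell markers fell, with a median log2 fold change of -1.61 and a range from -2.43 for Fcmr to -0.42 for Cr2. By brightest probe set, all but Cr2 lay at -1.02 (Cxcr5) or lower, below the values of Irf4 (-0.99) and Mzb1 (-0.94), a difference that was not tested. Another Ms4a1 probe set, on set B, had -0.55. The summed intensity of 13 B cell markers on set A was 30520 to 31090 in the depleted and 8156 to 11190 in the enriched samples. All 10 tested T cell markers fell, and their summed intensity over 9 markers was 6484 to 6785 against 2391 to 2604. All 11 tested macrophage markers rose, from sums of 8271 to 9620 to sums of 20250 to 23240 over 10 markers. So did the 9 endothelial markers, from 1560 to 1602 to 16770 to 18890 over 8 of them, and the 7 tested FDC markers, from 4069 to 4426 to 19810 to 23110, although 5 of the 7 passed after quantile normalization and when depleted sample 1 or 2 was left out. Of the FDC markers 6 passed at a common median, with the replicate block, or without enriched sample 2 or 3. Of the macrophage markers 10 passed with quantile normalization, a common median, the replicate block or without enriched sample 3. A second Csf1r probe set fell (-0.26). Of the T cell markers 9 passed with no filter, the replicate block, adjustment over the 3 sets, or without enriched sample 2 or 3. Leaving out a depleted sample also lost calls of B cell, T cell and macrophage markers. Dendritic cell markers were divided, with 2 of 8 rising and 3 falling. Of 8 tested fibroblast markers 7 rose, and mesothelial and epithelial markers summed to 1281 to 1309 against 1263 to 1615, with no call among the 4 tested (limma). No marker was at 0 on any array. Several, such as Cd3d, Tie1 and Cxcl13, lay above the filter only in the group in which they were high. With no filter the counts of these marker lists were the same except for T cells. The part of these cells in the changes of the 7 genes was not tested.

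**Figure D4:**
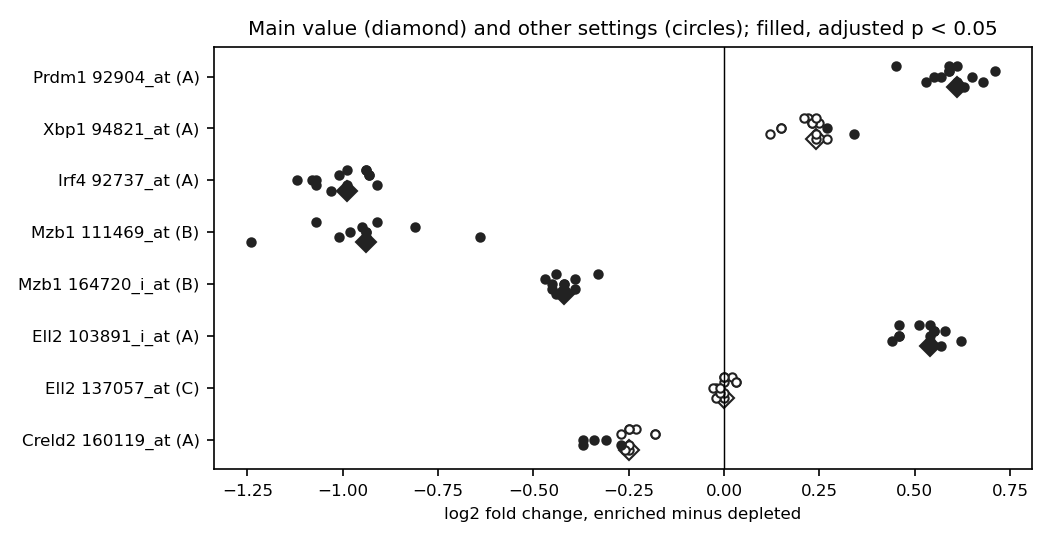
Log2 fold change of the 8 tested probe sets (horizontal axis) as reported (diamond) and under each other setting (circles), filled where the adjusted p was under 0.05. Prdm1, Irf4, both Mzb1 probe sets and Ell2 103891_i_at are filled throughout, and Xbp1 and Creld2 change between open and filled.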

How the data were processed

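For each of 3 array sets the authors deposited a table of linear intensity values, holding a value for each probe set on each array. The sources used here do not state the summary method, background correction or scaling behind these intensities. Within A, B and C, array trimmed means differed by factors of 1.08, 1.03 and 1.02, within the 10% allowed, so the deposited scale was kept. Each set was fitted alone after log2(intensity + pseudocount), with the 20th percentile of positive values as pseudocount (88.62, 81.28 and 52.95), using limma 3.58.1 under R 4.3.3 (lmFit, then eBayes with trend), and p-values were adjusted by Benjamini-Hochberg over each set. Each set's 66 control probe sets were dropped, and 7889, 7792 and 7370 probe sets were tested. The number of arrays limits the precision. Exact permutation cannot go below p = 0.1 with 2 against 3 arrays, or 0.333 with 2 against 2.

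Probe sets were named through the array annotation, with symbols updated by Entrez identifier to GRCm38.p6 where 10817 of 10833, 10550 of 10581 and 7677 of 7717 matched. Coordinates are those of the RefSeq promoter table only. The 7 genes and all lists were chosen with earlier results of these data known. Named from each list were the 2 largest rises and falls among passing genes, from each gene's brightest tested probe set, and for each of the 7 genes the 2 nearest patterns (leaving out immunoglobulin, T cell receptor and unnamed gene models), and other named genes are marked in the text. The scripts were tested on simulated data.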

Additional observations from a re-analysis of the deposited data

How the results depend on the processing

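The calls of Prdm1, Irf4, Ell2 103891_i_at and both Mzb1 probe sets held under all alternatives run: 2 other scalings, 2 other pseudocounts, no filter, no trend, array weights, adjustment over the 3 sets, each sample left out and, on sets A and C, the replicate block. Leaving out 1 sample gave log2 fold changes of 0.57 to 0.68 for Prdm1, -1.12 to -0.91 for Irf4, 0.46 to 0.62 for Ell2 and -1.24 to -0.64 for Mzb1. Set B shares 1 replicate number and was not blocked, and where 1 sample was left in an arm it was assumed to vary like the others. Xbp1 passed with array weights (0.27) and without enriched sample 1, with 0.15 to 0.34 over left-out samples. Creld2 passed under quantile normalization (-0.37), a common median (-0.34), array weights (-0.37) and without enriched sample 1 or 2, with -0.31 to -0.18 over left-out samples, and did not pass with the replicate block (-0.18, adjusted p = 0.234, limma). The near-zero Ell2 137057_at turned to -0.01 under quantile normalization, -0.02 at a common median, -0.03 with array weights and -0.02 to 0.03 over left-out samples. Canx turned to -0.05 and -0.03 under the other scalings, and Pax5 to 0.02 without depleted sample 2 (-0.14 to 0.02 over left-out samples). The causes were not tested.

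The number of passing probe sets was 3237 on set A (2024 to 3665 over left-out samples, the lowest without depleted sample 1 and 2037 without depleted sample 2), 2840 on B and 1337 on C (810 to 1316, the lowest without depleted sample 2 and 881 without enriched sample 3). Same-numbered samples had correlations of their deviations of 0.03 and 0.06 on A and -0.31 and -0.15 on C. With 2 depleted arrays the deviations mirror each other, so these values cannot settle whether same-numbered samples were paired. The main fit assumed no pairing, and the replicate block gave 2807 calls on A and 864 on C. On set A 56.3% of calls were higher in the enriched samples, against 41.3% under quantile normalization and 42.5% at a common median. The settings for list counts and genes beyond the 7 were added after seeing the data.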

Other observations

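Sdc4, another syndecan gene, had 1 sample far from the others. On set A probe set 98590_at measured 367.8 and 344.2 in the depleted samples and 1220, 300.9 and 294.2 in enriched samples 1, 2 and 3, and did not pass (log2 fold change 0.38, adjusted p = 0.569, limma). On set B, which has no array of enriched sample 1, probe set 109816_s_at measured 192.6 and 165.2 against 297.6 and 327.0, a log2 fold change of 0.60 (adjusted p = 8.65e-05, limma). The probe sets thus differ in which enriched samples are high, and the gene was picked after its values were seen.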
